A study of Mus musculus with 6 samples.

Results

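The genes described here are the subunits and main inhibitors of the transcription factor NF-kB: the 5 subunit genes Rela, Rel, Nfkb1, Nfkb2 and Relb, the IkB genes Nfkbia, Nfkbib and Nfkbie, the deubiquitinase gene Tnfaip3 and the kinase gene Ikbkb. They were chosen by gene symbol, and all 10 were found among the 53819 symbols of the count table. All 10 also had enough reads to be among the 17155 genes tested. The samples were mouse gastruloids, aggregates of the embryonic stem cell line E14 grown in 3 dimensions, sequenced as mRNA. The groups were 3 libraries from untreated aggregates and 3 from aggregates kept with budesonide for 80 h; budesonide is a synthetic glucocorticoid and activates the glucocorticoid receptor. All 6 libraries came from this single line. The labels name no vehicle and no collection time for the untreated aggregates, nor do they tell if the replicates came from separate cultures, and p-values here therefore cover only the spread of these libraries, which may be technical.

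NF-kB is a family of dimeric transcription factors best known for inflammatory and survival gene expression. In resting cells IkB proteins hold the dimers in the cytoplasm. Signals from cytokine or Toll-like receptors activate the IKK kinase complex, which marks IkB for degradation and lets the dimers enter the nucleus, where they also switch on genes of their own inhibitors, Nfkbia and Tnfaip3 among them. A slower branch uses the kinase NIK and the subunits Nfkb2 and Relb. In pluripotent stem cells the pathway is known to be only weakly active. Glucocorticoids are known to restrain NF-kB in immune cells and, in some cell types, to raise Nfkbia transcription. mRNA levels report neither the location nor the DNA binding of the proteins.

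Libraries held from 5666168 to 7476862 counted reads, and no library stood apart in total. The pluripotency gene Pou5f1 was at 733.9 ± 7.03 CPM (read counts relative to the TMM-scaled library size; mean ± SD, n = 3) without and 776.0 ± 48.1 CPM with budesonide, and the posterior factor T (Brachyury) at 126.6 ± 8.87 and 2.64 ± 0.589 CPM. Of 8 pluripotency markers 6 rose and none fell, and all 5 tested posterior markers fell. In bulk RNA a change in the number of cells of a type and a change in RNA per cell cannot be told apart. Among markers of other cell types, 1 of 6 tested endothelial genes rose and 2 of 7 tested fibroblast genes fell. These shares, 16.7% and 28.6%, were no larger than the 28.7% of all tested genes that rose or fell. Of 14 markers of leukocytes, cells in which NF-kB is highly active, 4 had enough reads for a test and none passed, and none of the 14 was at 0 in every library. Their summed level was 24.9997 to 28.3 CPM in untreated and 25.1 to 28.8 CPM in budesonide libraries. As a measure of background, the 95th percentile of 1773 olfactory and vomeronasal receptor genes was 1.65 to 2.06 CPM per library, and 10 of the 14 leukocyte markers had a mean at or below the upper value. None of the 10 NF-kB genes did. This background takes no account of transcript length, and lying above it is weak evidence of expression for the lowest genes. The leukocyte markers Ptprc and Csf1r, at means of 3.59 and 3.78 CPM over all libraries, also lay above it, and Nfkbie was lower at 3.18 CPM.

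With budesonide 3 of the 10 genes rose and none fell: Nfkbia, Ikbkb and Nfkb1 (edgeR quasi-likelihood test, adjusted p under 0.05 over all tested genes). The same test called 28.7% of all tested genes, 15.2% as higher and 13.5% as lower, so the share called was close to that of genes at large. The 3 were also the genes with the most reads of the 10, averaging 245 to 331 per library where the others averaged 21.0 to 149. The median log2 fold change of the 10 genes was 0.29, beside -0.02 for all genes tested. The 3 budesonide libraries lay apart from the 3 untreated libraries for 5 of the 10 genes, each time on the higher side. Such separation was seen for 39.6% of all tested genes, and on the higher side for 19.8%.

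**Figure D1:**
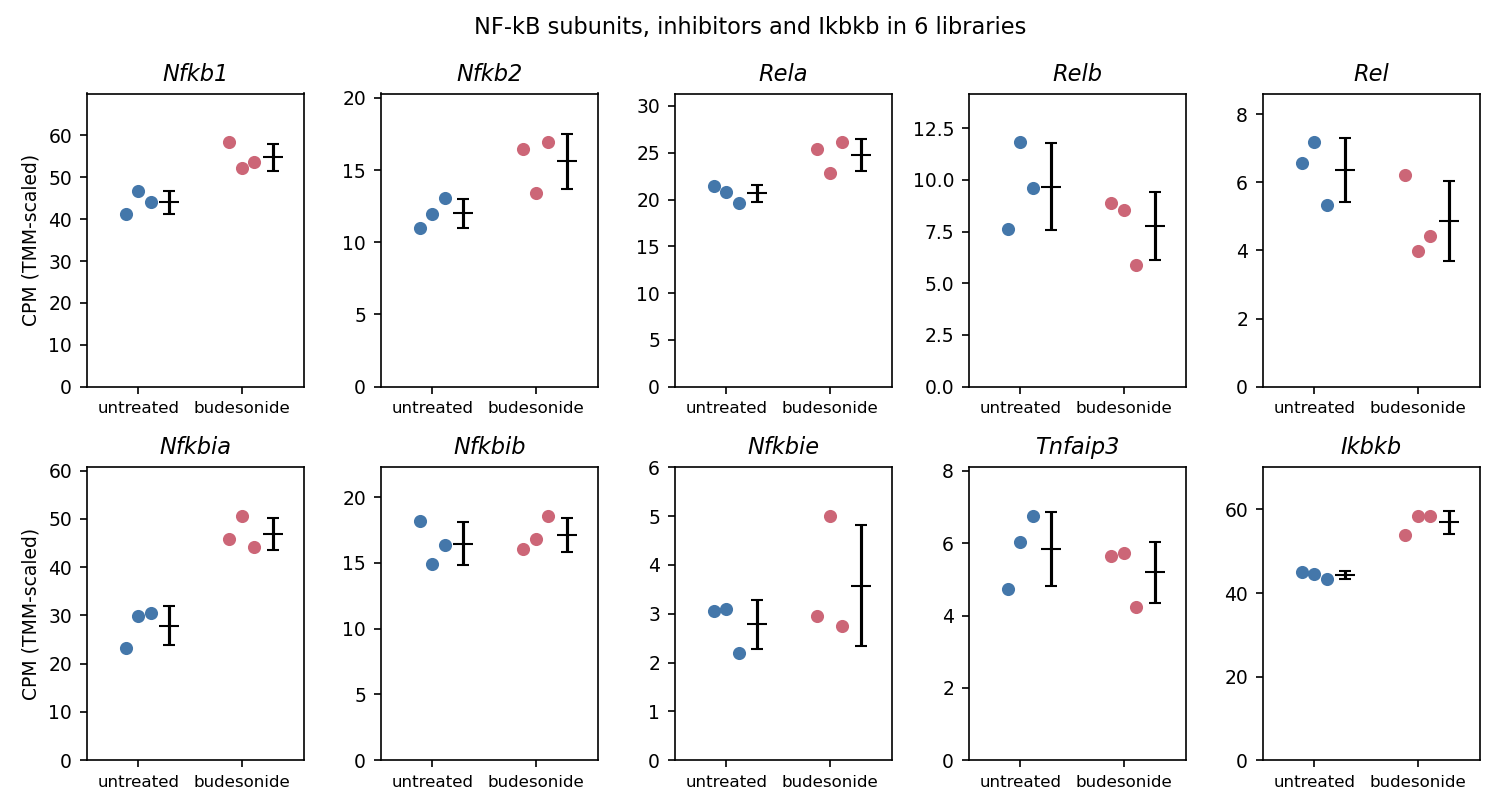
TMM-scaled CPM of each gene in every library (points, 3 untreated in blue and 3 budesonide in red), with the mean and SD in black beside them. Nfkbia, Ikbkb, Nfkb1, Rela and Nfkb2 show no overlap between groups, while Relb, Rel, Nfkbib, Nfkbie and Tnfaip3 overlap.

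The largest change among the 10 was that of Nfkbia, which encodes IkBα, the inhibitor that is broken down and remade in each round of NF-kB activity. It was at 23.2, 29.8 and 30.5 CPM in the untreated libraries and at 45.9, 50.6 and 44.1 CPM in the budesonide libraries. All 3 budesonide libraries were above every untreated one, with untreated replicate 1 the lowest of all. Nfkbia rose 1.69-fold, from 27.8 ± 4.04 to 46.9 ± 3.36 CPM (SD, n = 3), a log2 fold change of 0.75 ± 0.10 (SE; edgeR adjusted p = 6.22e-08) with a 95% interval of 1.46-fold to 1.95-fold.

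Promoter sequence was taken for the members from RefSeq (build GRCm38.p6), where 7 of the 10 genes matched by symbol with 10 annotated starts in all, several for Nfkb2 and Tnfaip3. Nfkb1, Relb and Ikbkb had no match by symbol and were not searched. The files used here were counted on GRCm39, so these coordinates locate the promoters only. The 250 bases before the start of Nfkbia are shown because it is the gene with the largest rise, and those of Nfkbie because it encodes another IkB that did not pass the test. Capitals mark each match to the textbook kB consensus, the NF-kB recognition motif that begins with GGG and ends with CC, searched on both strands. Both sequences are given on the gene's strand, 5′ to 3′, Nfkbia at chr12:55492648-55492897 (minus strand) and Nfkbie at chr17:45555450-45555699 (plus strand).
Nfkbia: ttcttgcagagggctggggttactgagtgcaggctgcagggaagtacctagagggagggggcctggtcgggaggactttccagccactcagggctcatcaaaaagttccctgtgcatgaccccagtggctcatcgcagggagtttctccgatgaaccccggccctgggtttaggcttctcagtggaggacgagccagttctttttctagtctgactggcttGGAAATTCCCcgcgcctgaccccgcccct
Nfkbie: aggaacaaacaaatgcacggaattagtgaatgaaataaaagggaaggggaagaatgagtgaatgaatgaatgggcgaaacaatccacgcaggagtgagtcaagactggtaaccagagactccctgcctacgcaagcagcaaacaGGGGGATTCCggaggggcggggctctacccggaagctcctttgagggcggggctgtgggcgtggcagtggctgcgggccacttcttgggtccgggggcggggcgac

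In the Nfkbia window the match, which reads as the consensus on the opposite strand, stood 29 to 20 bases before the start, and in that of Nfkbie 106 to 97 bases before it. The windows of Nfkb2, Rel and Tnfaip3 also held matches. A total of 4 of these 7 are shown here with their flanking bases, because the mRNAs of these genes, unlike that of Nfkbia, did not pass the test.
Nfkb2, 39 to 29 bases before its first start: atcgtcacGGGAATTCCCCccctcggg
Nfkb2, 225 to 216 bases before its last start: gtattttcGGGACTTTCCtaagcagc
Rel, 92 to 82 bases before its start: taagcagcGGGAAATCCCCccccctcc
Tnfaip3, 12 to 3 bases before its upstream start: tttccatcGGAAATCCCCct

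Of the 32851 RefSeq promoter windows of this length 3.9% held a match, and the windows of Rela and Nfkbib held none. This share takes no account of base composition. The median of all windows was 52.4% G or C, while those of these genes ranged from 46.4% at 1 Tnfaip3 start to 77.6% for Rel and mostly lay above that median. The glucocorticoid response palindrome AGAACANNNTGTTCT was in no window of these genes and in 0.00913% of all windows. Its half-site AGAACA was in 1 window, that of the other Tnfaip3 start, and in 16.1% of all. The NF-kB genes with a match thus included the one with the largest rise and 4 that did not pass. Of the risen genes only Nfkbia was searched, so matches cannot be compared between risen and other genes. A match is a run of letters in 250 bases and shows no binding.

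The other IkB genes did not pass. Nfkbib, which encodes IkBβ, was at 18.1, 14.9 and 16.3 CPM without and 16.1, 16.8 and 18.6 CPM with budesonide. The groups overlapped, with budesonide replicate 3 the highest and untreated replicate 2 the lowest of the 6 libraries, and the log2 fold change of 0.05 ± 0.13 (SE; edgeR adjusted p = 0.817) had a 95% interval of 0.860-fold to 1.253-fold. Its sign was negative with no scaling factors (-0.025) and without untreated replicate 2 (-0.013). The interval lay below that of Nfkbia, though the difference between both genes was not tested.

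Nfkbie, which encodes IkBε, had only 14 to 34 reads per library. It was at 3.05, 3.09 and 2.20 CPM in untreated and 2.96, 5.003 and 2.76 CPM in budesonide libraries. Budesonide replicate 2 was high and the others overlapped. The log2 fold change was 0.37 ± 0.31 (SE; edgeR adjusted p = 0.422), and the interval of 0.836-fold to 1.99-fold includes the size of the Nfkbia rise. At a mean of 21.0 reads, counting alone gives a coefficient of variation of 21.8%. The value rested largely on budesonide replicate 2, without which the log2 fold change was 0.053, and it was 0.24 without untreated replicate 3.

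Tnfaip3 encodes A20, an enzyme that removes ubiquitin chains from the signalling complex and is itself a textbook NF-kB target. It was at 4.73, 6.05 and 6.76 CPM without and 5.64, 5.74 and 4.23 CPM with budesonide, from 23 to 43 reads per library. The groups overlapped, with a log2 fold change of -0.15 ± 0.23 (SE; edgeR adjusted p = 0.682). Its 95% interval, 0.653-fold to 1.24-fold, ends below the lower bound of the Nfkbia interval. The log2 fold change was -0.27 without untreated replicate 1, -0.027 without untreated replicate 3 and -0.035 without budesonide replicate 3.

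Among the subunits, Nfkb1 encodes p105, the precursor of p50, the DNA-binding partner in the common p50 and RelA dimer. It was at 41.2, 46.8 and 44.0 CPM in untreated and 58.3, 52.2 and 53.7 CPM in budesonide libraries. All budesonide libraries were higher. Nfkb1 rose 1.24-fold, from 44.0 ± 2.83 to 54.8 ± 3.18 CPM (edgeR adjusted p = 0.00365; log2 fold change 0.32 ± 0.09, SE).

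Rela encodes the main activating subunit, p65. It was at 21.5, 20.8 and 19.6 CPM without and 25.4, 22.8 and 26.1 CPM with budesonide. The groups did not overlap, but with a log2 fold change of 0.26 ± 0.12 (SE) it missed the threshold after adjustment (edgeR adjusted p = 0.0970, unadjusted p = 0.0333). Its interval ran from 1.01-fold to 1.41-fold and covered the size of the Nfkb1 rise.

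Nfkb2 encodes p100, the precursor of p52 and an inhibitor in its own right until it is processed. It was at 11.0, 11.95 and 13.0 CPM without and 16.5, 13.4 and 16.9 CPM with budesonide, and budesonide replicate 2 lay closest to the untreated libraries. The log2 fold change of 0.38 ± 0.15 (SE; edgeR adjusted p = 0.0530) missed the threshold narrowly. It passed with RLE size factors (adjusted p = 0.0490), in limma on the deposited normalized counts (0.0465), without untreated replicate 3 (0.0473) and without budesonide replicate 2 (0.0177). In the annotation in hand (GENCODE M21) exons of Nfkb2 overlap Psd and AC114539.1 on the opposite strand. With the strand setting of the counting not given, reads of these genes and of Nfkb2 cannot be told apart there. Psd itself had a log2 fold change of -0.28 ± 0.37 (SE; edgeR adjusted p = 0.631). Nfkbib shares exon sequence with Ccer2 and Sirt2 in the same way, and the log2 fold change of Sirt2 was 0.30 ± 0.15 (SE, edgeR adjusted p = 0.125).

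The 2 remaining subunits had fold changes below 1. Relb, the partner of p52 in the slower branch, was at 7.62, 11.8 and 9.58 CPM in untreated and 8.88, 8.54 and 5.88 CPM in budesonide libraries. Rel, which encodes c-Rel, a subunit known mainly from lymphocytes, was at 6.55, 7.17 and 5.34 CPM and at 6.20, 3.97 and 4.41 CPM. In both genes the groups overlapped. Log2 fold changes were -0.30 ± 0.19 and -0.38 ± 0.23 (SE; edgeR adjusted p = 0.262 and 0.239), with intervals of 0.620-fold to 1.06-fold and 0.556-fold to 1.06-fold. Neither interval reached the rise of Nfkb1. Single libraries moved both values: that of Relb was -0.12 without untreated replicate 2 and -0.15 without budesonide replicate 3, and that of Rel -0.61 without budesonide replicate 1 and -0.23 without budesonide replicate 2.

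**Figure D2:**
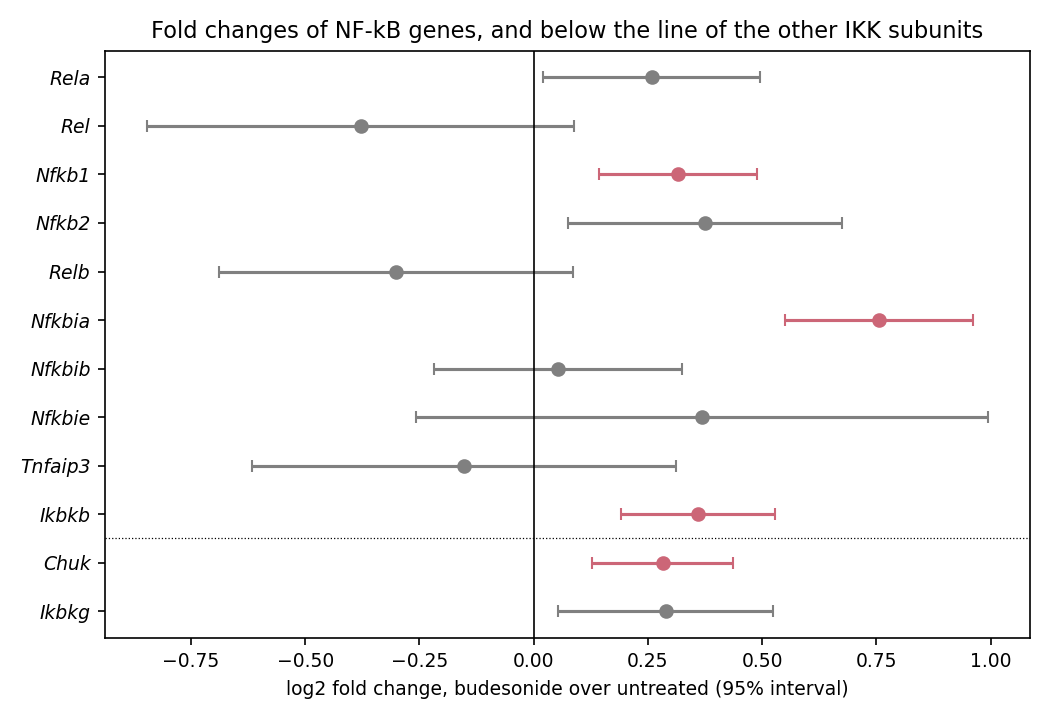
Log2 fold change of budesonide over untreated for the 10 genes and, below the dotted line, the other IKK subunits Chuk and Ikbkg; bars are 95% intervals, not adjusted for multiple tests, and red marks genes called higher after adjustment. Nfkbia at 0.75 stands to the right of the rest, while the intervals of Relb, Rel, Nfkbib, Nfkbie and Tnfaip3 cross 0.

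Ikbkb encodes IKKβ, the kinase that phosphorylates IkB. It was at 45.1, 44.4 and 43.4 CPM without and 53.8, 58.4 and 58.5 CPM with budesonide. The untreated libraries lay within a narrow range, and every budesonide library was above it. Ikbkb rose 1.28-fold, from 44.3 ± 0.886 to 56.9 ± 2.67 CPM (edgeR adjusted p = 0.000693; log2 fold change 0.36 ± 0.08, SE). Chuk, which encodes the other catalytic subunit IKKα, rose 1.22-fold, from 61.4 ± 3.67 to 74.6 ± 4.11 CPM (edgeR adjusted p = 0.00360). Ikbkg, which encodes the scaffold subunit NEMO, was at 20.4, 21.4 and 23.9 CPM without and 26.6, 29.3 and 23.9 CPM with budesonide. With a log2 fold change of 0.29 ± 0.12 (SE) it missed the threshold (edgeR adjusted p = 0.0580), and untreated replicate 3 lay just below budesonide replicate 3.

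Levels were compared between genes as CPM per kilobase of the longest annotated transcript. In untreated libraries Nfkbia was highest, at 17.6 ± 2.56 CPM per kilobase (SD, n = 3), followed by Nfkb1 at 10.6 ± 0.682 and Ikbkb at 9.14 ± 0.183. Nfkbib at 7.99 ± 0.787 and Rela at 7.60 ± 0.345 overlapped in their libraries, as did Nfkb2 at 3.12 ± 0.269 and Relb at 2.96 ± 0.640. At the bottom Tnfaip3, Nfkbie and Rel lay between 0.851 and 0.942 on average and overlapped with each other. With budesonide Nfkbia was at 29.7 ± 2.13 CPM per kilobase, Nfkb1 at 13.2 ± 0.766, Ikbkb at 11.7 ± 0.551 and Rela at 9.12 ± 0.636. The order changed only between neighbours that overlap: Rela moved above Nfkbib, and Nfkbie above Tnfaip3. Lengths are those of GENCODE M21, and the order depends on them. Over the union of all exons, which is 19078 bases for Ikbkb against 4845 for its longest transcript, untreated Ikbkb was at 2.32 and Nfkb1 at 3.65 CPM per kilobase, both below Nfkbib at 7.59 and Rela at 6.72, with Nfkbia still highest at 17.3.

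**Figure D3:**
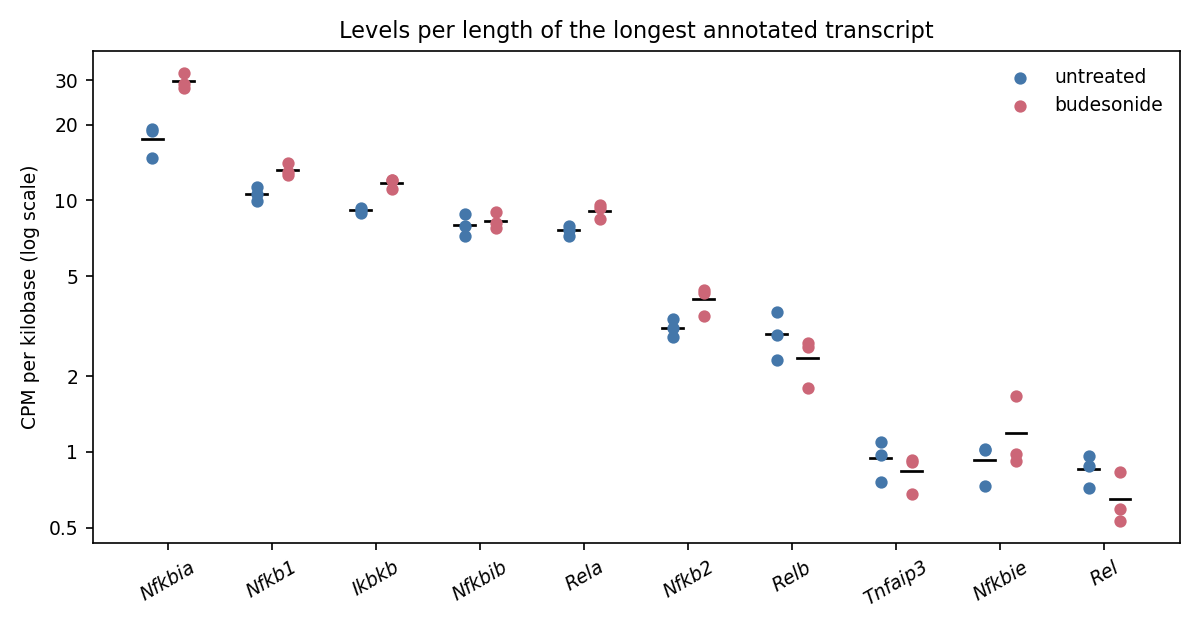
CPM per kilobase on a log scale for each gene, ordered by the untreated mean; points are single libraries (blue untreated, red budesonide) and black bars are group means. Nfkbia is highest in both groups, and Tnfaip3, Nfkbie and Rel are lowest, near 1.

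The inhibitor and subunit levels were also summed per library, as a description with no test, since the genes were chosen with earlier results known. The ratio of the summed level per kilobase of the 3 IkB genes to that of the 5 subunit genes was 1.03, 1.02 and 1.12 in untreated and 1.21, 1.52 and 1.29 in budesonide libraries. The budesonide libraries were all above the untreated ones. This largely repeats the rise of Nfkbia and is not a separate change. Nfkbia went from a mean of 17.6 to 29.7 CPM per kilobase, while Nfkbib went from 7.99 to 8.31 and Nfkbie from 0.925 to 1.19. Nfkbia made up 59.9%, 69.6% and 69.0% of the summed IkB level in untreated and 76.8%, 76.6% and 73.8% in budesonide libraries. Rela made up 33.1%, 28.8% and 29.1% of the summed subunit level in untreated and 29.9%, 30.4% and 32.8% in budesonide libraries, which overlapped.

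By the distance between centred log2 CPM profiles over the 6 libraries, the 3 genes most like Nfkbia, among those averaging 5 CPM or more, were Aim2, which encodes a sensor of cytosolic DNA (distance 0.128), the zinc finger gene Zfp654 (0.142) and the noncoding RNA gene Lncenc1 (0.157). Aim2 went from 33.3 ± 4.37 to 56.2 ± 4.82 CPM. With 6 libraries and a difference between the groups in many genes, such likeness is a description only.

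The rest of the pathway was read from 6 lists of 127 genes, of which 93 had enough reads. Of these 15 rose and 13 fell, 30.1% in all, close to the 28.7% of all tested genes, and the median log2 fold change was 0.01. The balance of directions depended on the tool, since DESeq2 called 13 of them higher and 7 lower. DESeq2 also called fewer of all genes, 1999 higher and 1318 lower, where edgeR called 2601 and 2316, so this shift is not particular to these lists. Among 14 kinases 3 rose and 1 fell (median 0.00076). Tbk1, an IKK-related kinase, rose from 54.5 ± 1.98 to 72.4 ± 6.51 CPM and Ripk1, a kinase of the TNF receptor complex, from 24.8 ± 3.35 to 32.2 ± 2.61 CPM. Tab1, a partner of the upstream kinase TAK1, fell from 18.5 ± 2.17 to 12.8 ± 1.24 CPM. Ripk1 is named here after its value was seen, and it lost the call without untreated replicate 1 (edgeR adjusted p = 0.0816). Of 23 adaptors and ubiquitin ligases 1 rose and 2 fell (median 0.01). Optn, a ubiquitin-binding adaptor, rose from 51.2 ± 7.95 to 97.4 ± 7.13 CPM, while the scaffold gene Card10 fell from 9.44 ± 1.497 to 3.44 ± 0.342 CPM. Rbck1, a subunit of the linear ubiquitin ligase, also fell, from 93.3 ± 5.09 to 77.9 ± 7.47 CPM, but lost the call in DESeq2 (adjusted p = 0.0764) and in edgeR without budesonide replicate 2 (0.0736).

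Of the other IkB proteins and negative regulators 7 of 20 tested genes rose and 2 fell (median log2 fold change 0.08). That is 45.0% called, beside 28.7% of all tested genes, of which 15.2% were called higher. Tnip1, which encodes an A20-binding inhibitor, rose from 62.1 ± 4.12 to 84.5 ± 7.50 CPM, and Tax1bp1, an adaptor of A20, from 175.9 ± 2.003 to 220.0 ± 14.5 CPM. The others that rose were Tnip2, Cyld, Zc3h12a, Irak3 and Sigirr, named after their values were seen, with Sigirr from 2.85 ± 0.440 to 6.26 ± 0.874 CPM and Cyld, a deubiquitinase, from 22.4 ± 3.44 to 29.2 ± 1.305 CPM. DESeq2 called 5 genes of this list higher and 2 lower, without Zc3h12a (adjusted p = 0.0698) and Irak3 (0.0622), and Cyld lost the call in edgeR without untreated replicate 1 (0.0814). Nfkbiz, which encodes the nuclear protein IkBζ, fell from 14.2 ± 2.57 to 7.60 ± 0.0578 CPM, and the ubiquitin ligase gene Itch from 117.9 ± 4.39 to 95.5 ± 2.004 CPM. The list was put together with earlier results of these libraries known, and its count was not tested against other lists.

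Receptors and ligands were at low levels. Of 19 receptor genes 12 could be tested, and 1 rose and 3 fell (median log2 fold change -0.13). That is 33.3% called, beside 28.7% of all tested genes. Tlr2 rose from 2.61 ± 0.800 to 6.44 ± 1.09 CPM. Ltbr, the lymphotoxin β receptor of the slower branch, fell from 6.09 ± 1.44 to 2.61 ± 0.477 CPM, and Tnfrsf1a, the main TNF receptor, from 3.55 ± 0.326 to 1.41 ± 0.736 CPM. The budesonide value of Tnfrsf1a lies within the background given above, and it did not pass in DESeq2 (adjusted p = 0.0524). The other that fell, Ager, named after its value was seen, averaged 1.87 CPM over all libraries, also within that background. Of 12 ligand genes 3 had enough reads, none of them passed, and 10 had a mean at or below the background of 2.06 CPM. Tnf was at 0.904 ± 0.185 and 0.645 ± 0.419 CPM and Il1b at 0.551 ± 0.241 and 0.519 ± 0.0673 CPM, both within background.

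Of 37 known NF-kB targets, a list that leaves out the 10 genes themselves, 21 could be tested, and 3 rose and 5 fell (median -0.01). That is 38.1% called, beside 28.7% of all tested genes. Sdc4, a cell surface proteoglycan, rose from 107.5 ± 10.9 to 239.7 ± 1.92 CPM and Hmox1, haem oxygenase, from 38.0 ± 6.44 to 62.0 ± 4.09 CPM. The other was the adhesion molecule gene Icam1, from 8.45 ± 0.376 to 14.6 ± 1.99 CPM, named after its value was seen. Cyclin D1, Ccnd1, fell from 120.2 ± 7.95 to 73.1 ± 6.81 CPM and the interferon regulatory factor Irf1 from 36.2 ± 1.99 to 27.3 ± 2.40 CPM. The others that fell, also named after their values were seen, were Tap1, Myc and Csf1. Tap1 went from 14.8 ± 3.01 to 10.3 ± 1.12 CPM, Myc from 20.9 ± 1.68 to 15.7 ± 2.81 CPM and Csf1 from 4.60 ± 0.612 to 2.54 ± 0.540 CPM. Some inflammatory targets, Il6, Cxcl1, Cxcl2, Ccl2, Ccl5 and Ptgs2, were within background in both groups and could not be tested. Others could: beside Csf1, which fell, Cxcl10 was at 2.21 ± 0.539 and 1.18 ± 0.726 CPM and did not pass (edgeR adjusted p = 0.160). Vcam1, Sele and Nos2 did not pass either. In DESeq2 3 targets passed as higher and 2 as lower. Sdc4, Hmox1, Ccnd1 and Icam1 are known to respond to other factors as well.

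**Figure D4:**
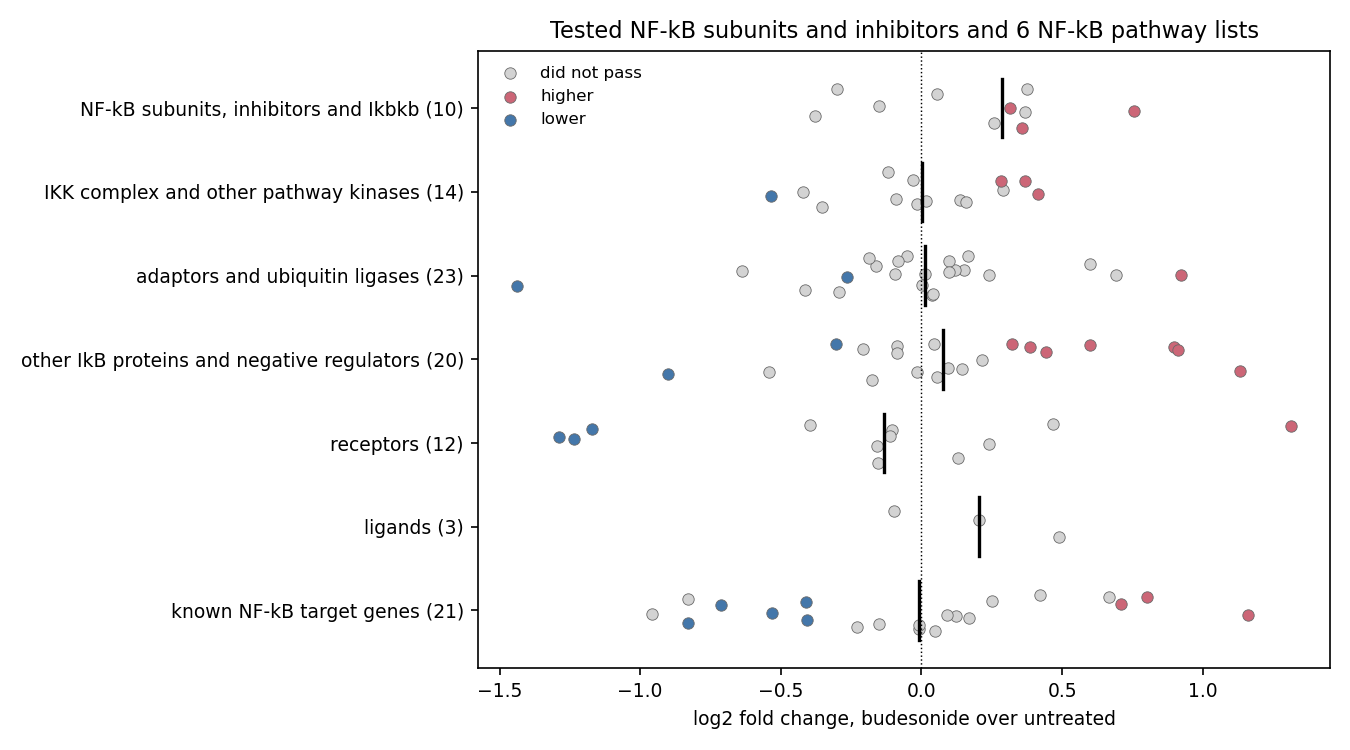
Log2 fold change of budesonide over untreated for each tested gene of the NF-kB subunits and inhibitors and of 6 pathway lists (number tested in brackets); red marks genes called higher, blue genes called lower, and the black bar is the list median. The medians of the pathway lists lie between -0.13 and 0.21, and that of the 10 genes at 0.29.

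The glucocorticoid receptor gene Nr3c1 and 14 known glucocorticoid target genes stand beside these values. Of the 15 genes, all with enough reads, 7 rose and 1 fell, 53.3% beside the 28.7% of all tested genes, with a median log2 fold change of 0.22. The list was put together with earlier results known. Pdk4, a kinase that restrains pyruvate oxidation, rose 3.53-fold, from 4.28 ± 0.452 to 15.3 ± 1.89 CPM, and Cebpd, a transcription factor gene, 3.01-fold, from 5.23 ± 1.33 to 15.8 ± 1.01 CPM. The metallothionein genes Mt1 and Mt2 rose 1.90-fold and 1.80-fold, the transcription factor gene Klf9 1.85-fold and the clock gene Per1 1.31-fold. These 6 targets kept their calls under all 15 alternatives. The one that fell, Ddit4, passed narrowly (edgeR adjusted p = 0.0492) and lost the call in 13 of the 15, with a log2 fold change of -0.21 ± 0.08 (SE). These 7 targets are named after their values were seen.

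Nr3c1 itself was at 33.5 ± 2.80 and 41.0 ± 1.65 CPM (edgeR adjusted p = 0.0191; log2 fold change 0.29 ± 0.10, SE), with adjusted p from 0.0138 to 0.0924 over the alternatives. Among the targets that did not pass, Fkbp5 was at 111.0 ± 2.65 and 113.0 ± 5.94 CPM and Tsc22d3, whose product GILZ is known to bind p65, at 4.21 ± 1.24 and 3.76 ± 0.931 CPM. Their edgeR adjusted p-values were 0.820 and 0.686. What part these genes, or the fall of T given above, had in the rise of Nfkbia was not tested.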

How the data were processed

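Polyadenylated RNA of 6 libraries was sequenced after a stranded preparation, per the labels' protocols. Tools named in the submitters' processing notes are bcl2fastq, STAR 2.7.5c, cutadapt 2.5, DESeq2 and featureCounts 2.0, with build GRCm39. The strand setting, like the annotation, was not given in the sources used here. The authors deposited raw counts for each gene symbol, and also a normalized signal. Checked against those counts, the signal was the count over a single factor for each library (largest deviation 0.00562 reads). Sample titles gave the groups and replicate numbers.

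Counts were tested with edgeR 4.0.16 (R 4.3.3) after filterByExpr (minimum count 10, total 15) and TMM scaling, by robust quasi-likelihood tests of the group term, the sole covariate. P-values were adjusted by Benjamini-Hochberg over 17155 genes, with 0.05 as threshold. Standard errors and 95% intervals came from the quasi-likelihood statistic. Counts for this comparison were also simulated over 17155 genes, with 50 changed genes per fold, drawn from those averaging 5 CPM or more. There 32% of changes of 1.25-fold, 78% of 1.5-fold and 98% of 2-fold were recovered, and 12 unchanged genes were called. Far fewer genes changed there than the 4917 called in the real data, which makes the adjustment stricter in the simulation. Changes as small as those of most NF-kB genes can thus be missed, but how often they were missed here was not measured. Within a group, libraries differed by a chi-square of 1.42 to 3.12 per gene, where 1 is sampling noise, and none repeats another. In a library 3 reads correspond to 0.422 to 0.552 CPM.

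The members and lists were chosen with earlier results of these data known. All 10 members are given. Each pathway list is illustrated by up to 2 risen and 2 fallen genes, those with the smallest adjusted p among genes averaging 1 CPM or more, and the member with the smallest adjusted p by the 3 genes most like it. Transcript lengths and exon overlaps came from GENCODE M21 (GRCm38). Alternatives were DESeq2 1.42.0, RLE, upper quartile and no scaling, no filter, a filter at 1 CPM in 3 libraries, a block for the replicate number, limma 3.58.1 on the deposited normalized counts (log2 after adding 1), an adjusted p under 0.01, and leaving out each library.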

Additional observations from a re-analysis of the deposited data

How the results depend on the processing

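Nfkbia, Ikbkb and Nfkb1 kept their calls under all 15 alternatives, with log2 fold changes of 0.65 to 0.84, 0.28 to 0.40 and 0.24 to 0.37. The number of NF-kB genes called was 3 or 4, the fourth being Nfkb2. Relb, Rel, Nfkbie and Tnfaip3 kept their signs and did not pass in any, nor did Rela (adjusted p from 0.0548 to 0.335). When a library was left out, their log2 fold changes ranged from -0.44 to -0.12 (Relb), -0.61 to -0.23 (Rel), 0.053 to 0.51 (Nfkbie) and -0.27 to -0.027 (Tnfaip3). Nfkbib changed sign with no scaling factors (-0.025) and without untreated replicate 2, with a range of -0.013 to 0.139 when a library was left out. Fkbp5 did so with upper quartile scaling (-0.027), no scaling factors (-0.053), no filter on low counts (-0.0016) and without budesonide replicate 1 (range -0.0055 to 0.082 when a library was left out), and Tsc22d3 without untreated replicate 1 (range -0.369 to 0.093).

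Over all genes 4917 were called, 52.9% of them higher. It was 38.6% with no scaling factors. A replicate block gave 4986 called genes and the same number of NF-kB genes (3). Deviations of libraries with the same number correlated at 0.0404, 0.0595 and -0.0176. No effect shared by number was thus seen, but such values cannot tell whether libraries with the same number were made together. Of the named genes whose calls were followed singly through the alternatives, the block ended only the call of Ddit4 (edgeR adjusted p = 0.0537). The calls of T, Ager, Tap1, Myc and Csf1 were not followed in this way. In the pathway lists DESeq2 called 13 genes higher and 7 lower, against 15 and 13. Over all genes it called 1999 higher and 1318 lower, against 2601 and 2316. In the pathway lists again: it called 2 of the adaptors against 3, 7 negative regulators against 9, 2 receptors against 4 (1 lower against 3) and 5 known targets against 8 (2 lower against 5). It gave an adjusted p to 85 of the 93 pathway genes.

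Sums per kilobase depend on the length used. The ratio of IkB to subunit levels, 1.06 untreated and 1.34 with budesonide, was 1.14 untreated with coding lengths, and 1.58 and 2.06 with the union of exons. The share of Nfkbia in the budesonide IkB level was 72.2% with coding lengths, and that of Rela among the subunits 41.3% and 43.2% with the union of exons against 30.3% and 31.0%. Rel, Tnfaip3 and Nfkbie rest on at most 51 reads in a library.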
